A study of Mus musculus with 6 samples.

Results

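Genes of the pluripotent and early embryonic stage were examined in sorted pancreatic progenitors that carried or lacked the *mir-302* cluster. The set held 10 genes, taken by name from the 55414 genes of the deposited count table: *Pou5f1*, *Nanog*, *Esrrb*, *Zfp42*, *Tdgf1*, *Klf4*, *Sall4*, *Lin28a*, *Lin28b* and *Hmga2*. All 10 were listed in the table, and 5 of them had enough reads to be compared between genotypes. The measurements came from 6 mRNA libraries, 3 WT (Pdx1-Cre+, Tdtomato+, miR-302WT) and 3 KO (Pdx1-Cre+, Tdtomato+, miR-302KO), of embryos at E10.5. Males carrying *Pdx1-Cre* and *mir-302*+/- were crossed to *mir-302*+/- females with the *Rosa26* LSL-tdTomato reporter, so that every library, WT or KO, came from cells carrying both the Cre transgene and the reporter. The *Pdx1-Cre* transgene marks cells that have switched on *Pdx1* together with their descendants, and the marked cells were collected from the trunk by FACS, whereas the *mir-302* deletion was present in the whole embryo. The sources used here do not say how many embryos entered a library, and p-values measure only the spread between these samples, which may be technical.

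The miR-302 family is best known in embryonic stem cells, where it is made in large amounts and helps to maintain the pluripotent state. *Pou5f1* (Oct4) and *Nanog* encode core transcription factors of that state, and *Esrrb*, *Klf4* and *Zfp42* (Rex1) belong to its naive form. LIN28 proteins, which outlast pluripotency in many embryonic progenitors, bind let-7 precursors and block their maturation, while mature let-7 represses *Lin28a*, *Lin28b* and the chromatin gene *Hmga2* through their 3′UTRs. The data bear on which of these genes were still transcribed in pancreatic progenitors at E10.5, and on whether their mRNA differed without *mir-302*.

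Mature miRNAs of the deleted cluster, which also holds miR-302a, and a member of the let-7 family are shown first, because their seeds (bases 2 to 8 from the 5′ end, in capitals) define the matches searched in the mRNAs. Sequences and GRCm38.p6 coordinates are from RefSeq.
mmu-miR-302b-3p, chr3:127545275-127545297, plus strand: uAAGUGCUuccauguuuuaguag
mmu-miR-302c-3p, chr3:127545406-127545427, plus strand: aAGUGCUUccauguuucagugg
mmu-miR-302d-3p, chr3:127545665-127545687, plus strand: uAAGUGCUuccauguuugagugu
mmu-miR-367-3p, chr3:127545779-127545800, plus strand: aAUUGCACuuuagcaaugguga
mmu-let-7a-5p, chr13:48538239-48538260, minus strand: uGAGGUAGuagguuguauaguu
miR-302b and miR-302d shared the seed AAGUGCU, the listed miR-302c began 1 base further along the same run, and miR-367 had a seed of its own. All let-7 family members in the table shared the seed GAGGUAG.

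Matches to these seeds were searched on the mRNA strand, in the longest 3′UTR that GENCODE M21 (GRCm38) gives a gene. A match was AGCACTT or GCACTTA for miR-302 and CTACCTC or TACCTCA for let-7, and a run holding both forms (AGCACTTA or CTACCTCA, an 8mer) was counted once. The sites below are shown because they lie in the 4 let-7-matched genes that were expressed in these cells, with the match in capitals and the preceding bases of the 3′UTR in lower case.
*Lin28a*, bases 909 to 916 of the 3′UTR, chr4:134005189-134005211, minus strand: gcacagcctgttgaaCTACCTCA
*Lin28a*, bases 1547 to 1554, chr4:134004551-134004573, minus strand: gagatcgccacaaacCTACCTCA
*Lin28b*, let-7 match at bases 36 to 43, chr10:45381022-45381044, minus strand: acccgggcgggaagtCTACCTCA
*Lin28b*, miR-302 match at bases 2535 to 2541, chr10:45378524-45378546, minus strand: tgaactcactgatatgAGCACTT
*Lin28b*, miR-302 match at bases 4033 to 4039, chr10:45377026-45377048, minus strand: tggctatcaaccacagGCACTTA
*Sall4*, bases 1082 to 1089, chr2:168748940-168748962, minus strand: agggctttaatttatCTACCTCA
*Hmga2*, bases 58 to 65, chr10:120364224-120364246, minus strand: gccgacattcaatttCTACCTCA
Let-7 matches were found 17 times, in 5 of the 10 genes: 7 in *Hmga2*, 5 in *Lin28b*, 2 in *Lin28a*, 2 in *Esrrb* and 1 in *Sall4*. Of the 13763 tested genes with an annotated 3′UTR, 17.1% held a let-7 match, 0.124% held 5 or more and 0.0363% held 7 or more, and the highest number in any of them was 8. *Lin28b* alone among the 10 genes held a miR-302 match, and its 2 matches compare with 20.6% of the 13763 genes holding at least 1 and 4.64% holding at least 2. The 3′UTRs of *Lin28b* (4445 bases), *Hmga2* (3014 bases) and *Lin28a* (2775 bases) were longer than the median of 1185 bases, and a longer window holds more matches. A match of these letters is a description and was not tested for use as a binding site.

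**Figure D1:**
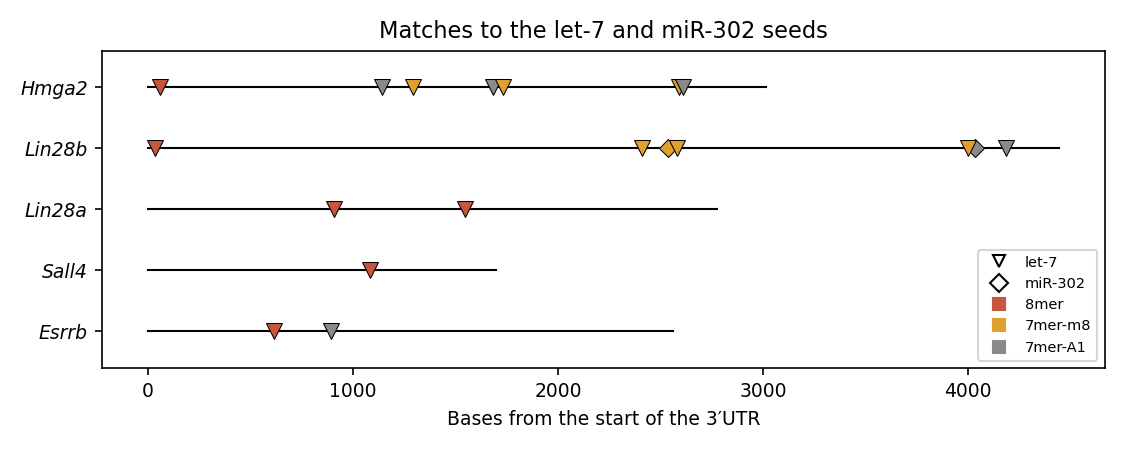
Position of let-7 and miR-302 seed matches along the longest 3′UTR of a gene, in bases from its start (x axis). Each line is a 3′UTR drawn to length, triangles are let-7 and diamonds miR-302 matches, and the colour gives the form of the match (7mer-m8 is CTACCTC or AGCACTT alone, 7mer-A1 is TACCTCA or GCACTTA alone). *Hmga2* carried 7 let-7 matches and *Lin28b* 5, while the only miR-302 matches were the 2 in *Lin28b*.

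Total counts per library ran from 17352498 to 26634523, and 16353 genes passed the filter on low counts. The *mir-302* cluster itself could not be used to check the genotype labels, because polyadenylated RNA gave 0 counts for *Mir302a*, *Mir302b*, *Mir302c* and *Mir367* in all 6 libraries and 2 counts for *Mir302d*, in KO replicate 3 only. Markers of pancreatic progenitors and gut endoderm were present in every library (12 of 12 genes tested, summed 1707 to 2101 CPM, or counts per 1000000 reads of the TMM-scaled library, in WT and 1883 to 2332 in KO), with *Pdx1* at 73.1 to 108 CPM. RNA of genes listed for other cell types was present too. Liver genes summed to 1101 to 2412 CPM in WT and 1013 to 2704 in KO, and mesenchyme genes to 272 to 1212 in WT and 128 to 1129 in KO. The liver genes did not all move together. In KO replicate 2 *Alb* was at 2.62 CPM (WT 16.3 to 39.7), while *Hnf4a* was at 159 (WT 118 to 146). Endothelial genes summed to 20.2 to 32.2 in WT and 1.71 to 43.6 in KO, and neural genes to 20.3 to 34.8 in WT and 21.1 to 45.4 in KO. The blood genes, embryonic globins among them, summed to 15964 CPM in WT replicate 3 and 6396 in KO replicate 1, against 339 in KO replicate 3 and 4.02 or less in the other libraries. In bulk RNA, fewer cells of a type and less RNA per cell cannot be told apart.

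*Pou5f1*, *Nanog*, *Esrrb*, *Zfp42* and *Tdgf1* were at or close to 0 reads in both genotypes. *Pou5f1* had 1, 1 and 1 reads in the WT libraries (replicates 1 to 3) and 0, 2 and 1 in the KO libraries. *Esrrb*, an orphan nuclear receptor of naive cells, had 0, 2 and 0 reads in WT and 1, 0 and 0 in KO. *Zfp42* had 0 reads in every WT library and 3, 0 and 2 in KO. *Tdgf1*, which encodes the Nodal co-receptor Cripto, had 0, 0 and 2 reads in WT and 0 in every KO library. These 4 genes never exceeded 3 reads, the number that a true level of 0 is here taken to allow, which corresponds to 0.112 to 0.171 CPM depending on the library. *Nanog* had 0 reads in 5 of the 6 libraries and 7 in KO replicate 1, which is 0.263 per 1000000 counts of that library without TMM scaling, with an exact 95% binomial interval of 0.106 to 0.542. No genotype difference can be read from a single library, and KO replicate 1 was also the deepest library and one of the pair rich in blood RNA, whose part in these reads was not tested. Intervals and limits of this kind cover counting error only.

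The 5 genes below the filter together gave 23 reads in all libraries, against 30986 reads for the 5 genes that passed the filter. Their reads came to 1, 3 and 3 in the WT libraries and 11, 2 and 3 in the KO libraries, and the highest value, in KO replicate 1, contained the 7 *Nanog* reads. Scaled to exon length, 3 reads in the shallowest library corresponded to 0.0283 CPM per kilobase for *Esrrb* and up to 0.0909 for *Zfp42*, far below the median of 4.72 over the tested genes. The tested genes are those that passed the filter on low counts. This contrast and that of the read totals therefore follow in part from the filter. Pseudogenes carrying the names of *Nanog*, *Tdgf1* and *Zfp42* also had 0 reads in every library. A transcript present in a small share of the sorted cells could go undetected at this depth.

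**Figure D2:**
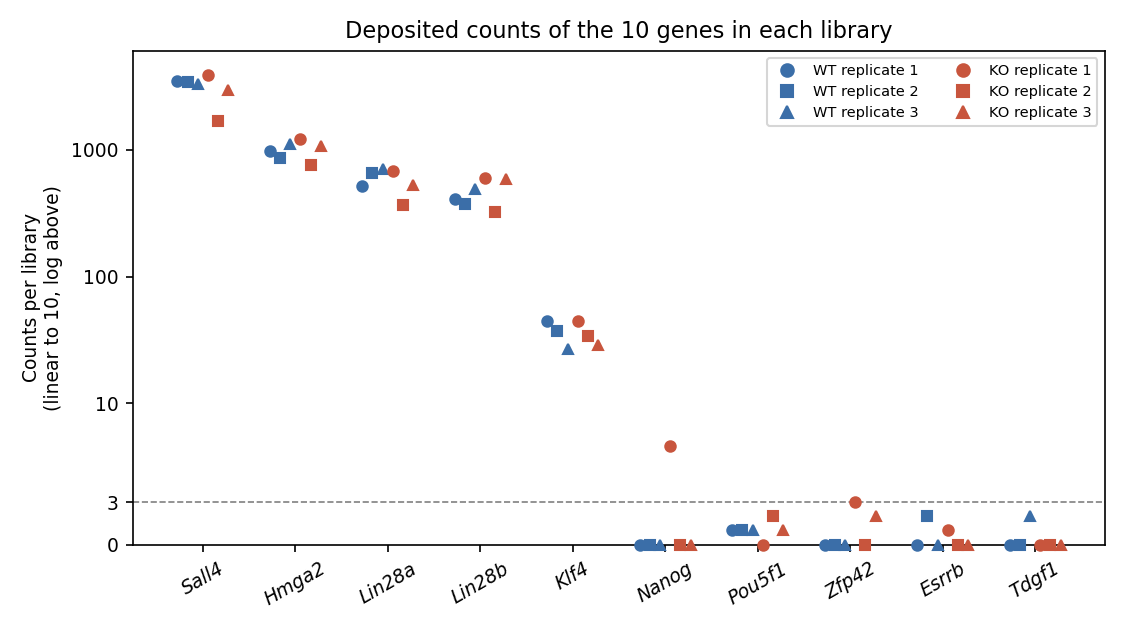
Reads per library of the 10 genes, with each point a library (WT blue, KO red, replicates 1 to 3 as circle, square and triangle), on an axis that is linear up to 10 reads and log-scaled above, with a dashed line at 3 reads. *Pou5f1*, *Nanog*, *Esrrb*, *Tdgf1* and *Zfp42* lay at 0 to 7 reads, *Klf4* at 27 to 45, and the other genes at 325 or more.

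*Sall4*, a zinc finger factor of stem cells that stays on in several embryonic progenitors, was the most abundant of the 10 genes. Its TMM-scaled level was 163, 189 and 158 CPM in WT and 144, 95.3 and 160 in KO, so that KO replicate 2 stood below all others while KO replicate 3 lay within the WT range. The mean was 170 ± 16.7 (SD, n = 3) in WT and 133 ± 33.6 in KO, a log2 fold change of -0.35 (SE 0.19, 95% interval -0.79 to 0.08) and a KO level 0.783 times that of WT (interval 0.579 to 1.06). This difference did not pass the edgeR quasi-likelihood test (Benjamini-Hochberg adjusted p = 0.592). Without KO replicate 2 the log2 fold change of *Sall4* was -0.15 (edgeR adjusted p = 0.667). In KO replicate 2 the sums of mesenchyme (128 CPM), endothelial (1.71), liver (1013) and blood genes (1.08) were also the lowest of the 6 libraries. Its sums of neural genes (45.4) and of pancreatic and gut endoderm genes (2332) were the highest of the 6. In WT replicate 2, where *Sall4* was highest, the sums were 272 for mesenchyme, 29.9 for endothelium, 2412 for liver and 4.02 for blood. There the neural sum was 34.8 and the pancreatic and gut endoderm sum 1997. The part of these cell types in the *Sall4* level was not tested.

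*Klf4*, a reprogramming factor that is also used in differentiated epithelia, was measured at a low level. It had 45, 37 and 27 reads in WT and 45, 34 and 29 in KO, or 2.12, 2.07 and 1.31 CPM against 1.68, 1.94 and 1.58. The KO values lay inside the WT range. The log2 fold change was -0.08 (SE 0.32, 95% interval -0.83 to 0.66), an interval that leaves room for a KO level between 0.563 and 1.58 times that of WT (edgeR adjusted p = 0.968). Its sign changed with the library left out, from -0.24 without WT replicate 3 to 0.04 without WT replicate 1.

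Both LIN28 genes were expressed. *Lin28a*, at 24.5, 36.4 and 34.0 CPM in WT and 25.3, 20.8 and 28.4 in KO, had its lowest value in a KO library and its highest 2 in WT libraries, with WT replicate 1 inside the KO range. Its means were 31.6 ± 6.29 in WT and 24.8 ± 3.83 in KO (SD, n = 3), a log2 fold change of -0.35 (SE 0.20, 95% interval -0.81 to 0.11), or 0.785 times WT (interval 0.571 to 1.08, edgeR adjusted p = 0.622). Over the libraries left out in turn it ran from -0.50 (without WT replicate 1) to -0.22 (without WT replicate 2), lower in KO each time and never past the threshold.

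*Lin28b*, the paralog of *Lin28a* and the only member with miR-302 matches, was at 19.4, 20.7 and 23.9 CPM in WT and 22.2, 18.5 and 32.1 in KO. KO libraries held both its lowest and its highest value. The means were 21.3 ± 2.33 in WT and 24.2 ± 7.002 in KO, a log2 fold change of 0.19 (SE 0.22, 95% interval -0.33 to 0.70), or 1.14 times WT (interval 0.795 to 1.63, edgeR adjusted p = 0.869). Without KO replicate 3 the log2 fold change of *Lin28b* was -0.03, so its direction rested on that library.

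*Hmga2*, a chromatin protein with AT-hooks that is abundant in the embryo and held down by let-7 later, had the smallest standard error of the 5 genes. Its levels were 46.2, 48.0 and 53.3 CPM in WT and 45.4, 43.2 and 57.5 in KO, and the KO libraries reached both below and above the WT range. The means of 49.2 ± 3.68 and 48.7 ± 7.73 gave a log2 fold change of -0.02 (SE 0.14, 95% interval -0.34 to 0.31, edgeR adjusted p = 0.987). The interval spans KO levels of 0.788 to 1.24 times WT, and its sign changed with RLE size factors but not with upper quartile factors. The plot of CPM by genotype shows each library of the 5 genes.

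**Figure D3:**
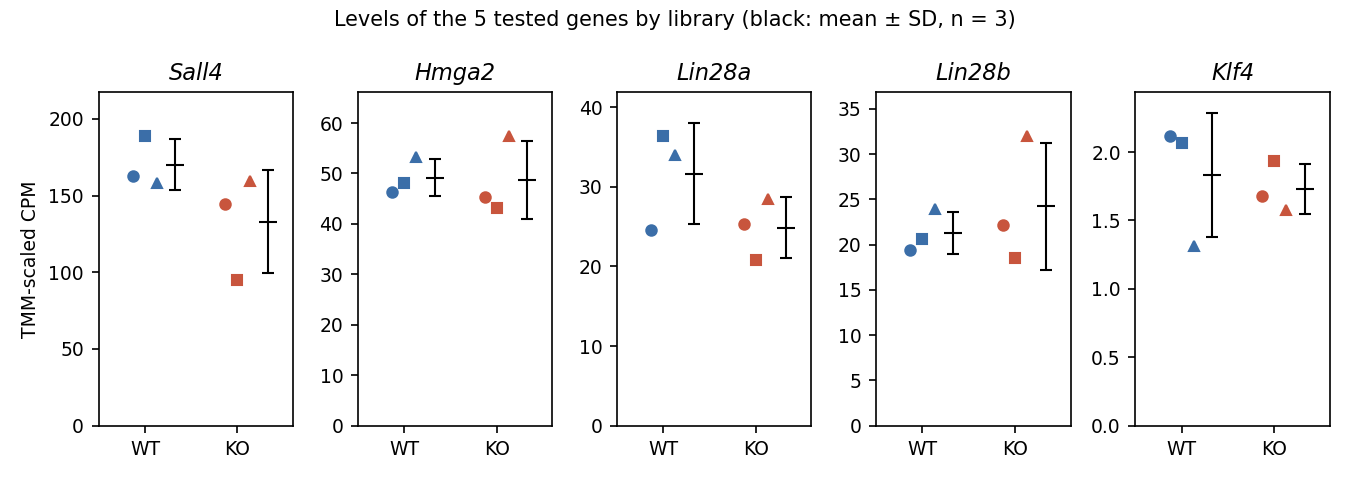
TMM-scaled CPM (y axis, linear, from 0) of *Sall4*, *Hmga2*, *Lin28a*, *Lin28b* and *Klf4* in WT (blue) and KO (red), with each point a library (replicates 1 to 3 as circle, square and triangle) and the black bar and whiskers the mean ± SD of 3 libraries. The genotypes' ranges overlapped for every one of the 5 genes.

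Of the 5 tested genes, 0 were called by edgeR at an adjusted p under 0.05, where 0% of all 16353 tested genes were called. At an unadjusted p under 0.05 the count was again 0 of 5, against 10.4% of all tested genes (6.42% higher and 3.97% lower in KO), and the ranges of WT and KO overlapped in 5 of 5, against non-overlap in 16.4% of all tested genes. DESeq2, which called 4.87% of the 14353 genes to which it gave an adjusted p, also called 0 of the 5, with adjusted p from 0.562 for *Sall4* to 0.999 for *Hmga2*. Where a share of all tested genes is given for DESeq2 calls below, it is of these 14353 genes. By sign, 4 of the 5 members were lower in KO and 1 was higher, with a median edgeR log2 fold change of -0.08 beside -0.02 over all genes tested by edgeR. The smallest p that an exact permutation test can give with 3 against 3 libraries is 0.1, and the lowest of the 5 genes was 0.2, for *Sall4* (two-sided).

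Levels of different genes were compared per kilobase of exon, with the exons of all annotated transcripts of a gene merged. The order of genes on this scale depends on that choice of length. *Sall4* stood highest, at 30.7 ± 3.02 CPM per kilobase in WT and 24.0 ± 6.06 in KO (SD, n = 3), above 85.2% of the 16313 tested genes with a length. *Lin28a* (7.92 ± 1.58 in WT, 6.22 ± 0.958 in KO) and *Hmga2* (7.26 ± 0.543 in WT, 7.19 ± 1.14 in KO) overlapped in both genotypes and were not ordered beyond their spread. *Lin28b* followed at 2.35 ± 0.257 in WT and 2.67 ± 0.772 in KO, with no library reaching the lowest *Lin28a* library. *Klf4* was lowest of the tested genes, at 0.601 ± 0.149 in WT and 0.568 ± 0.0608 in KO, above 15.8% of tested genes. On this scale *Lin28a* was the higher of the LIN28 pair in each of the 6 libraries, from 5.204 against 2.04 in KO replicate 2 to 9.11 against 2.28 in WT replicate 2. Opposite-strand genes share exon bases with *Lin28a* (234 of 3996), *Sall4* (526 of 5536) and *Hmga2* (140 of 6772). Whether reads were counted by strand is not stated. These neighbours (*Gm13061*, *Gm14261* and *1700006J14Rik*) themselves had at most 14 reads in a library. Such counts cannot show whether reads in the shared bases were assigned or dropped, and the part of these bases in the levels was not tested.

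Ratios within a library remove the scaling between libraries, and all 10 pairs of the 5 genes were examined. The ratio of *Lin28a* to *Lin28b* in CPM was 1.27, 1.76 and 1.42 in WT and 1.14, 1.12 and 0.886 in KO, with every KO library below every WT library. The means were 1.48 ± 0.254 and 1.05 ± 0.142, a log2 difference of -0.49. The ratio of *Lin28b* to *Sall4* was 0.119, 0.109 and 0.151 in WT and 0.154, 0.194 and 0.201 in KO, a log2 difference of 0.54, with the closest libraries (WT replicate 3 and KO replicate 1) nearly equal. These 2 pairs, singled out after their values were seen, were the only ones of the 10 without overlap. Each had an exact two-sided permutation p of 0.1, the smallest the design allows, and 0.5 after Benjamini-Hochberg adjustment over the 10 pairs. As a background, the ratio of a tested gene to *Lin28b* did not overlap between genotypes for 8.65% of 16352 genes, and was lower in KO without overlap for 7.01%. Both pairs contain *Lin28b* and therefore share its values.

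**Figure D4:**
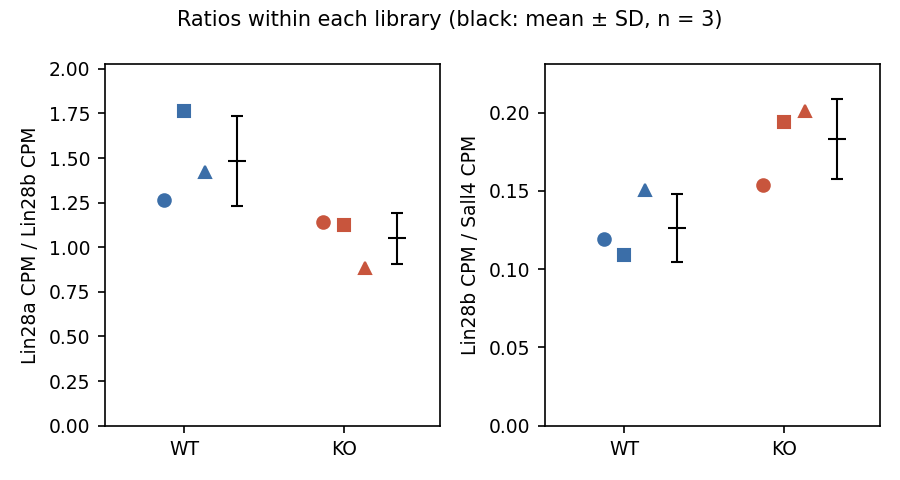
Within-library ratios of *Lin28a* to *Lin28b* and of *Lin28b* to *Sall4* (y axes, CPM over CPM, from 0) in WT and KO, with each point a library and the bar and whiskers the mean ± SD of 3 libraries. The KO libraries lay below the WT libraries for the first ratio and above them for the second.

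Further genes of the pluripotency network ranged from 0 reads in all libraries to 5707 reads in 1 library (*Trim28*, KO replicate 1). Of 26 listed genes, 8 had 3 reads or fewer in every library, among them *Prdm14*, *Fgf4*, *Lefty2* and *Tcl1* at 0 reads in all 6, and 12 were tested. By sign 4 of the 12 were higher in KO and 8 lower, with a median log2 fold change of -0.04, 0 called by edgeR (3 higher and 1 lower at an unadjusted p under 0.05) and 3 called higher by DESeq2 (all tested genes: 4.22% called higher, 0.648% lower). The 3 called by DESeq2 were *Sox2*, *Klf5* and *Trim28*. *L1td1*, also among the 12, had no adjusted p from DESeq2 and could not be called by it. At the unadjusted p, 6.42% of all tested genes were higher in KO and 3.97% lower. *Sox2*, a core pluripotency factor that also patterns the foregut, was at 0.660, 0.782 and 1.55 CPM in WT and 5.14, 4.33 and 2.88 in KO, every KO library above every WT library. Its log2 fold change was 2.04 (SE 0.42, edgeR adjusted p = 0.137, DESeq2 adjusted p = 0.00128). *Klf5*, a KLF factor of naive cells and of gut epithelium, was at 31.5, 39.7 and 29.2 CPM in WT and 61.2, 73.6 and 63.6 in KO (log2 fold change 0.98, SE 0.15, edgeR adjusted p = 0.132). *Trim28*, a widely expressed co-repressor of retroelements and the most abundant gene of the list, was at 115.9 ± 17.6 in WT and 179 ± 32.7 in KO (log2 fold change 0.63, SE 0.16, edgeR adjusted p = 0.184, DESeq2 adjusted p = 0.00759). *Tfcp2l1*, a factor of naive cells and of epithelia, had the lowest unadjusted p among the genes lower in KO (log2 fold change -0.93, SE 0.35, edgeR adjusted p = 0.394). With the filter and all 6 libraries, edgeR called none of these 3, but it called *Klf5* without the filter (adjusted p = 0.0213) and without WT replicate 2 (adjusted p = 0.0319).

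Genes of the primed epiblast and of gastrulation mostly fell below the filter on low counts, with 3 of 12 tested, 0 called by edgeR (1 higher at an unadjusted p under 0.05) and 1 called higher by DESeq2. Over all tested genes, 6.42% were higher at that unadjusted p and 4.22% were called higher by DESeq2. *Dnmt3b*, a de novo DNA methyltransferase, was at 29.5, 34.0 and 23.9 CPM in WT and 46.8, 38.3 and 41.0 in KO, without overlap (log2 fold change 0.53, SE 0.16, edgeR adjusted p = 0.27, DESeq2 adjusted p = 0.0462). Of all tested genes, 8.36% were higher in KO without overlap. The mean of *Cer1*, a secreted Nodal antagonist, was 1.77 CPM in WT and 2.33 in KO. That of *Fgf5*, a ligand of the primed epiblast, was 2.79 in WT and 1.22 in KO, and both genes had overlapping ranges. In the germ cell list, *Dppa3* had 0 reads in every library and *Dazl* and *Mael* at most 2, while *Nanos3* had 4 to 13 and *Ddx4* 1 to 41. Germ cells at this stage also express *Pou5f1*, *Nanog* and *Lin28a*. Of 8 tested germ cell genes, 4 were higher and 4 lower in KO by sign, with a median log2 fold change of -0.05, and 0 were called by either tool (1 higher at an unadjusted p under 0.05 by edgeR, all tested genes: 6.42%). DESeq2 gave no adjusted p for *Ddx4*, *Nanos3* and *Rhox5*, so it could not call them. *Kit*, a receptor tyrosine kinase used by several lineages, was the most abundant of the germ cell list, at 200.2 ± 26.7 CPM in WT and 219 ± 26.0 in KO. *Tdrd5*, a Tudor domain gene of germ granules, ranged over 2.73 to 7.15 in WT and 9.29 to 11.2 in KO (log2 fold change 1.00, SE 0.34, edgeR adjusted p = 0.327, DESeq2 adjusted p = 0.0699). *Dnd1*, an RNA-binding protein of germ cells, and *Ddx4* (Vasa) had log2 fold changes of -0.50 (SE 0.37, edgeR adjusted p = 0.748) and -1.16 (SE 0.90, edgeR adjusted p = 0.768), with overlapping ranges.

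The genes that let-7 and LIN28 are known to regulate were all expressed, with 19 of 19 tested and 18 of the 19 holding a let-7 match. By sign 10 were higher in KO and 9 lower, with a median log2 fold change of 0.03, 0 called by edgeR (4 higher and 4 lower at an unadjusted p under 0.05), and 3 higher and 0 lower by DESeq2 (all tested genes: 4.22% and 0.648%). At the unadjusted p, 6.42% of all tested genes were higher in KO and 3.97% lower. Without overlap between genotypes, 2 genes of the list were higher (*E2f5* and *Igf2bp2*) and 3 lower (*Trim71*, *Plagl2* and *Nras*), against 8.36% and 7.99% of all tested genes. *E2f5*, an E2F family transcription factor, was at 22.4, 35.2 and 22.8 CPM in WT and 63.0, 49.3 and 44.0 in KO (log2 fold change 0.96, SE 0.22, edgeR adjusted p = 0.16, DESeq2 adjusted p = 0.000903). *Hras*, the one gene of the list with no let-7 match, and *Cdc25a*, a phosphatase that drives the cell cycle, had log2 fold changes of 1.12 (SE 0.31, edgeR adjusted p = 0.223) and 0.57 (SE 0.17, edgeR adjusted p = 0.251), and their ranges overlapped. Both were called higher by DESeq2 (adjusted p = 0.00364 and 0.0349). *Igf2bp2*, which encodes an RNA-binding protein, was at 373, 368 and 356 CPM in WT and 414, 390 and 409 in KO, a small difference (log2 fold change 0.15, SE 0.07, edgeR adjusted p = 0.57). *Trim71*, the mouse counterpart of worm lin-41 with several let-7 matches, measured 7.02, 6.87 and 10.4 CPM across WT and 5.59, 6.04 and 4.52 CPM across KO (log2 fold change -0.59, SE 0.24, edgeR adjusted p = 0.459). Over all tested genes the median log2 fold change was -0.02 for the 2351 with a let-7 match and -0.01 for the 11412 without one.

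Genes that process let-7 and other miRNAs were also all tested, 12 of 12, with 4 higher and 8 lower in KO by sign, a median log2 fold change of -0.07 and 0 called by edgeR (1 higher and 1 lower at an unadjusted p under 0.05, all tested genes: 6.42% and 3.97%). DESeq2 called 1 lower (all tested genes: 0.648%), *Ddx5*, an RNA helicase of the Microprocessor, which was also the 1 gene lower without overlap (all tested genes: 7.99%). *Ddx5* was at 372, 362 and 404 CPM in WT and 303, 311 and 296 in KO, without overlap (log2 fold change -0.32, SE 0.08, edgeR adjusted p = 0.167, DESeq2 adjusted p = 0.0425). *Ago2*, the slicing Argonaute, measured 30.6, 36.5 and 30.3 CPM across WT and 49.1, 51.5 and 35.4 in KO (log2 fold change 0.48, SE 0.17, edgeR adjusted p = 0.363). *Ddx17*, a paralog of *Ddx5*, had a log2 fold change of -0.30 (SE 0.18, edgeR adjusted p = 0.656). *Tut4*, the terminal uridylyl transferase that LIN28A recruits to let-7 precursors, had ranges that overlapped (log2 fold change 0.00, SE 0.11, edgeR adjusted p = 0.999).

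**Figure D5:**
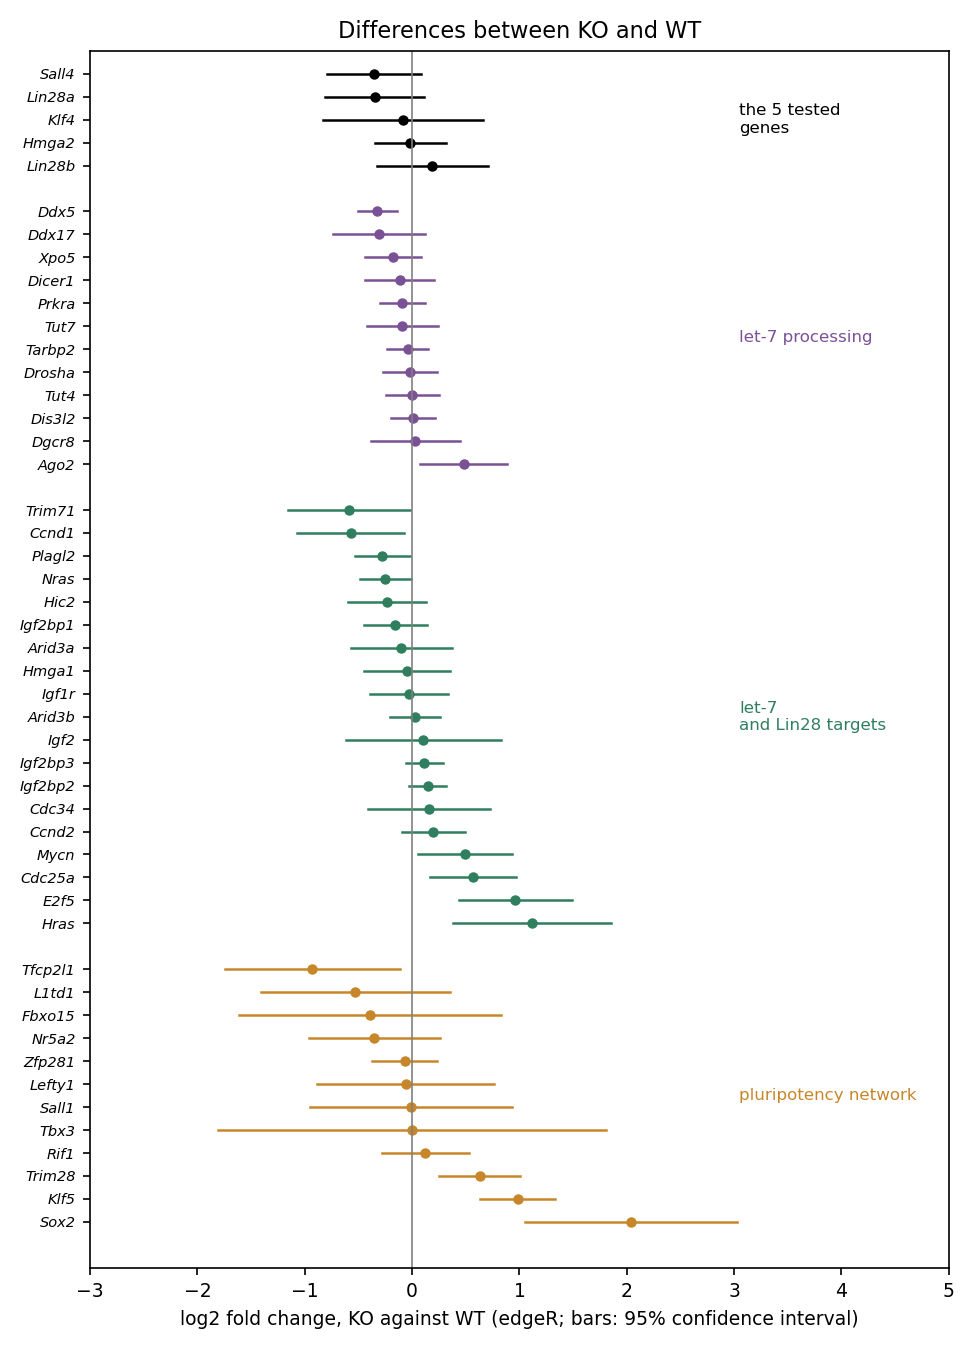
Log2 fold change of KO against WT (x axis, points) with its unadjusted 95% confidence interval (bars) from edgeR, for the 5 tested members (black) and every tested gene of the lists of let-7 processing (purple), let-7 and Lin28 targets (green) and the pluripotency network (orange). The intervals of all 5 members cross 0. Those of several list genes do not, in both directions. Among them, *Sox2*, *Klf5*, *Trim28* and *E2f5* were higher in KO, and *Ddx5*, *Tfcp2l1*, *Trim71*, *Plagl2* and *Nras* lower. No gene passed adjustment over all genes.

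Among the 12 tested genes of the pancreatic and gut endoderm list, DESeq2 called 2 higher (all tested genes: 4.22%). They were *Gata6* and *Gata4*, endodermal GATA factors (edgeR log2 fold changes 1.33 and 0.63, edgeR adjusted p = 0.132 and 0.14). *Mnx1*, a homeobox factor of the dorsal pancreas, had a log2 fold change of 1.21 (edgeR adjusted p = 0.415). *Cdh1* (E-cadherin), the most abundant gene of that list, was at 633 CPM in WT and 569 in KO on average. Across the lists, 7 of the 9 genes that DESeq2 called higher had a stretch of 200 transcript bases with at least 75% GC, as did 22.0% of 13845 tested genes. Of the 5 tested members only *Klf4* had one (82.5% GC), while *Hmga2* (74.5%) and *Lin28a* (73.5%) came just under it. The part of GC content in these calls was not tested.

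The genes whose levels followed the 3 most abundant members most closely over the 6 libraries were found from the root-mean-square difference of log2 CPM, each centred on its own mean. For *Sall4*, which varied by 0.99 on the log2 scale, they were *Emb* (difference 0.07), *Tceal5* (0.07) and *Tmem82* (0.08), out of 5905 genes that varied enough to be compared. *Emb*, which encodes the adhesion protein embigin, was at 535, 605 and 462 CPM in WT and 444, 310.1 and 530.5 in KO, with KO replicate 2 the lowest as for *Sall4*. For *Lin28a*, the closest of 7240 genes were *Gm43737* (0.04), *Zzef1* (0.05) and *Rreb1* (0.08), and for *Hmga2* the closest of 12041 were *Baiap2* (0.03), *Cand1* (0.03) and *Ints1* (0.04). These 9 genes had log2 fold changes between -0.42 (*Rreb1*) and 0.00 (*Baiap2*), and 0 of them passed the edgeR test, as did 0% of all 16353 tested genes. They were chosen for likeness over these same 6 libraries, so fold changes and low libraries like those of the members follow from the choice. With 6 libraries and so many genes compared, close likeness of this kind is a description of these libraries.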

How the data were processed

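RNA of FACS-sorted cells was made into SMART-seq v4 and Nextera XT libraries. The authors removed low-quality bases, ran STAR with its defaults against GRCm39, used GenomicAlignments for gene counts and deposited these raw counts, which are not normalized. Annotation, strand setting, treatment of multi-mapping reads and tool versions are not given in the sources used here. The counts were fitted with edgeR 4.0.16 under R 4.3.3 (filterByExpr, TMM, glmQLFit and glmQLFTest at defaults, genotype the only term) over all 6 libraries and 16353 genes, with a call at a Benjamini-Hochberg adjusted p under 0.05. DESeq2 1.42.0, the tool of the study, was an alternative. Scripts were tested on simulated data. Symbols were found for 94.0% of identifiers. Lengths, 3′UTRs and coordinates are of GENCODE M21 (GRCm38), another build than that of the counts. The members and lists were chosen with earlier results of these data known. Named genes were the members, the most abundant gene and the 3 lowest unadjusted p of each list, the 3 genes most like each of the 3 most abundant members, and genes completing counts of 5 or fewer. *Tut4* and list genes named for having few or no reads were chosen outside this rule, after their values were seen. For the blood, liver, mesenchyme, endothelium and neural lists only sums are given, apart from *Alb*, *Hnf4a*, *Col3a1*, *Prrx1* and *Vim*. Same-numbered WT and KO libraries were compared for pairing.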

Additional observations from a re-analysis of the deposited data

How the results depend on the processing

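Of the 5 members, 0 were called under any of 14 alternative settings, and their lowest adjusted p over these settings was 0.428 (*Sall4* without KO replicate 3). The count over all genes was 0 by edgeR (1700 at an unadjusted p under 0.05), 264 with no filter on low counts, 699 by DESeq2 (606 higher and 93 lower in KO) and 0 to 217 with 1 library left out, the 217 without WT replicate 2. Among the list genes the count was 0, then 3 with no filter, 10 by DESeq2 and 0 to 2 with 1 library left out (*Klf5* and *Gata6*, without WT replicate 2). The cause of these differences was not tested. Of 70 recomputed member changes, 11 reversed sign, in *Hmga2*, *Klf4* and *Lin28b*. *Hmga2* became 0.00058 with RLE size factors, 0.0032 by DESeq2 and 0.12 with both libraries richest in blood RNA left out, an alternative chosen after seeing the data, and ran from -0.12 to 0.080 with 1 library left out. *Klf4* became 0.042 with the first digit of the library code as a term and ran from -0.24 to 0.037, *Lin28b* from -0.031 to 0.36, *Lin28a* from -0.50 to -0.22 and *Sall4* from -0.47 to -0.15. The median of the 5 ran from -0.24 to -0.01 with 1 library left out.

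Deviations of WT and KO libraries of the same number from their group means had correlations of -0.21, 0.25 and 0.08. WT replicate 1 and WT replicate 3 correlated best with KO libraries of another number, and WT replicate 2 with KO replicate 2. With so few libraries, these values cannot decide whether the numbers pair the samples. WT replicate 2 and KO replicate 1 share the start of their library code, whose meaning is not stated. With the replicate number as a block, 0 genes and 0 members were called.

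With 3 libraries per genotype, the unadjusted 95% interval of each of the 5 tested members covers both directions. The interval is not a limit of detection, because calls were adjusted over all tested genes. *Sox2*, with a log2 fold change of 2.04 (interval 1.05 to 3.03), was not called by edgeR (adjusted p = 0.137). Members at 3 reads or fewer are limited by depth.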
